A study of Bos taurus with 18 samples.

Results

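MicroRNAs *bta-miR-126-5p*, *bta-miR-126-3p*, *bta-miR-143* and *bta-miR-145* are best known from the blood vessel wall. They were taken by name from the deposited tables and make up 4 of the 1071 miRNAs listed there. Jugular plasma was collected from the same 3 Japanese Black steers, which are castrated males fattened under a shared feeding system, when they were about 20, then 25, then 30 months old. Each of the 9 plasma samples gave 1 library of exosomal RNA (EX) and 1 of non-exosomal free circulating RNA (FC), so that 6 groups of 3 libraries were compared (EX and FC at each age). No treatment is named for any group, and 3 animals of 1 breed limit how far the groups stand for cattle in general. Each steer was sampled at every age, so that p-values between EX and FC measure the spread among 9 plasma samples of 3 steers, and those between ages the spread among the 3 steers. The replicate numbers in the sample titles were taken as the steers, which the titles do not state.

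In the vessel wall, miR-126 is the characteristic miRNA of endothelial cells. Its hairpin sits within the gene *EGFL7* and yields 2 mature strands, or arms. The 3p arm restrains repressors of VEGF signaling, including *SPRED1*, and the 5p arm has been tied to endothelial proliferation through *DLK1*; platelets also carry miR-126. The miR-143 and miR-145 hairpins are transcribed together, under serum response factor and myocardin, and help hold vascular smooth muscle cells in the contractile state, in part through *KLF4* and *ELK1*. Other stromal cells make them as well. In plasma, such miRNAs travel inside vesicles or bound to proteins such as Argonaute.

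The mature sequences are shown because an arm or a cluster mate can only be told apart in small RNA data by its letters. Capitals mark the seed, bases 2 to 8 from the 5′ end, which leads the pairing with target mRNAs.
bta-miR-126-5p: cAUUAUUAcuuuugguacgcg
bta-miR-126-3p: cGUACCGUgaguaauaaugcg
bta-miR-143: uGAGAUGAagcacuguagcucg
bta-miR-145: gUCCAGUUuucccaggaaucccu
These are the sequences given in the deposited count table. The 4 seeds differ from each other, and 0 of the other known miRNAs among the 1030 in the table shares any of them. The strands are 21 to 23 bases long. In the RefSeq annotation of ARS-UCD2.0, *MIR126* lies inside *EGFL7* on chromosome 11, followed by *AGPAT2*. *MIR143* and *MIR145* are neighbors on chromosome 7 inside the long non-coding RNA gene *LOC132345768*, followed by *CSNK1A1*. This assembly is not the build the reads were mapped to, and it was used for names and neighbors only.

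Levels are given as CPM, the share of 1 miRNA in the miRNA counts of a library, scaled to a fixed total. A higher CPM in 1 fraction is therefore a larger share of that library and not a larger number of molecules in plasma, and fewer cells of a type or less RNA released per cell cannot be told apart. Library totals were between 991354 and 2778618 counts in EX and between 3615234 and 12088735 counts in FC, so that 3 counts, the limit that a count of 0 allows, correspond to 1.08 to 3.03 CPM in EX, against 0.248 to 0.83 CPM in FC. All 72 values of the 4 miRNAs were far above this limit, and counting error only is covered by it. The 4 miRNAs together took 1.08% to 4.06% of a library. In both libraries of steer 3 at 25 months, *bta-miR-150* took an unusually large share, 27.6% of EX and 19.4% of FC counts, against 15.7% or less of any other library. Those libraries also had the lowest TMM (trimmed mean of M values) scaling factors, 0.743 and 0.734.

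*Bta-miR-126-3p*, the more studied endothelial arm, had EX levels at 20 months of 8996, 4494 and 3961 CPM in steers 1, 2 and 3, at 25 months of 15335, 10924 and 8378 CPM, and at 30 months of 18365, 13608 and 22028 CPM. In FC its levels were 5511, 4735 and 3205 CPM at 20 months, 13103, 9879 and 2704 CPM at 25 months, then 5919.65, 4466 and 10427 CPM at 30 months. In EX, each steer was higher at each later age. In FC, steers 1 and 2 were highest at 25 months, whereas steer 3 was highest at 30 months. The group means were ordered EX at 30 months (18000.2 ± 4222 CPM, SD, n = 3), EX at 25 months (11546 ± 3520.1), FC at 25 months (8562 ± 5323), FC at 30 months (6937.5 ± 3108), EX at 20 months (5817 ± 2766) and FC at 20 months (4484 ± 1173). Of neighbors in this order, only EX at 30 and 25 months differed by more than the larger SD, and their ranges still overlapped. Within an EX library, the mean abundance rank of *bta-miR-126-3p* was 34.7 at 20 months and 12 at 30 months.

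*Bta-miR-126-5p*, the other arm of the same hairpin, had EX levels of 4214, 3097 and 2183 CPM at 20 months, 8846, 6799.6 and 2968 CPM at 25 months, then 6376, 4540.3 and 8942 CPM at 30 months in steers 1, 2 and 3. Its FC levels were 5398, 4985 and 2895 CPM at 20 months, 14648, 9273 and 2954 CPM at 25 months, then 7930.4, 5836 and 11729 CPM at 30 months. Steers 1 and 2 were highest at 25 months in EX as well as in FC, and steer 3 was highest at 30 months in both. All neighboring groups in the order of means, from FC at 25 months (8958 ± 5854 CPM) down to EX at 20 months (3165 ± 1017), differed by less than the larger SD.

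*Bta-miR-143*, a smooth muscle and stromal miRNA, was at 4950.45, 5335 and 5096 CPM at 20 months in EX, at 7545, 11410.4 and 2918 CPM at 25 months, then at 8809, 8573 and 6842 CPM at 30 months. In FC it was at 9455, 10317.5 and 9962 CPM at 20 months, 12536, 17746 and 4953 CPM at 25 months, then 15035, 13599 and 12812 CPM at 30 months. Its 3 FC group means (13816, 11745 and 9911 CPM at 30, 25 and 20 months) lay above its 3 EX group means (8075, 7291 and 5127 CPM), and FC at 20 months (9911 ± 434) and EX at 30 months (8075 ± 1074) did not overlap. The other neighbors in that order did not differ beyond their spread. The steers were close together at 20 months, with an SD of 3.79% of the mean in EX and 4.38% in FC, and far apart at 25 months (58.3% and 54.8%), where steer 3 was low in both libraries.

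*Bta-miR-145*, transcribed beside *bta-miR-143*, was the least abundant. Its EX levels were 706, 272 and 400.2 CPM at 20 months, 451, 553 and 166 CPM at 25 months, then 271, 412 and 456 CPM at 30 months, with no common direction among the steers. Its FC levels were 262, 205 and 169 CPM at 20 months, 308, 361 and 155 CPM at 25 months, then 149, 129.7 and 166 CPM at 30 months. Here the EX group means (459, 390.2 and 379 CPM at 20, 25 and 30 months) lay above the FC group means (275, 212 and 149 CPM at 25, 20 and 30 months), the reverse of *bta-miR-143*. Among neighbors in the order of means, only FC at 20 months (212 ± 47.1 CPM) and FC at 30 months (149 ± 18.4) differed beyond the larger SD, without overlap. Its counts at 30 months were set against a reference count, the count above 0 with the most miRNAs within a fixed factor of it. This is not the most frequent value, since only 284, 258 and 296 of the 1071 miRNAs were above 0 in EX of steers 1, 2 and 3. The reference count there was 84, 76 and 41, with 37, 36 and 41 miRNAs in its window. The EX counts of *bta-miR-145*, 538, 408 and 494, were 6.4, 5.37 and 12.05 times the reference count. In FC at 30 months its counts were farther above the reference count, at 15.6 to 36.4 times.

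**Figure D1:**
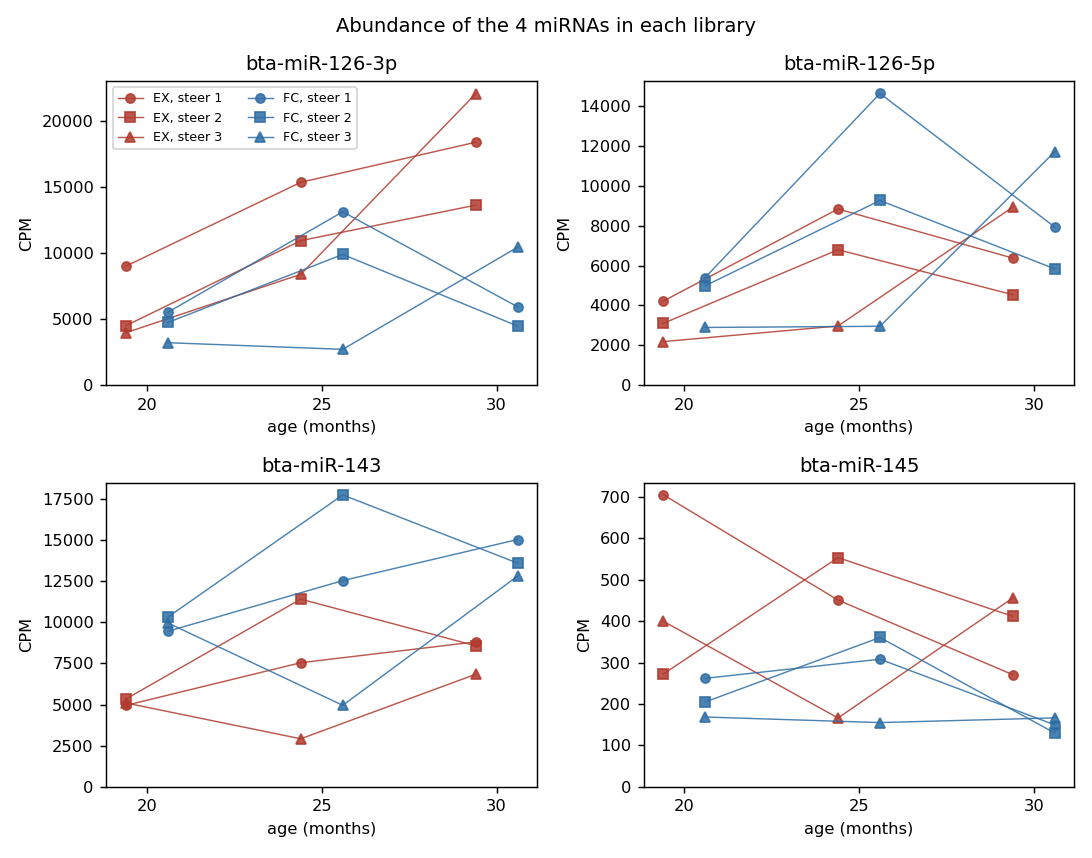
CPM (vertical axes, from 0) of each miRNA at 20, 25 and 30 months (horizontal axes) in each EX (red) and FC (blue) library, with lines joining the libraries of 1 steer. In the EX libraries *bta-miR-126-3p* runs from 3961 to 22028 CPM and is higher at each later age in every steer, and *bta-miR-143* is higher in FC than in EX of the same plasma throughout.

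The first comparison was between EX and FC of the same plasma. *Bta-miR-143* was higher in FC in 9 of 9 plasma samples, by 1.56-fold to 1.95-fold, and *bta-miR-145* was higher in EX in 9 of 9, by 1.07-fold to 3.17-fold. Of the 330 miRNAs measured in both fractions (CPM > 5 in at least 3 libraries of each), 6.36% were higher in FC, and 4.55% higher in EX, in all 9 plasma samples. *Bta-miR-126-3p* was higher in EX in 8 of 9, at 0.949 to 3.1 times its FC level, and *bta-miR-126-5p* was higher in FC in 8 of 9, at up to 1.66 times its EX level. The exception for *bta-miR-126-3p* was steer 2 at 20 months, and for *bta-miR-126-5p* steer 3 at 25 months, where both libraries were at nearly the same level (a ratio of EX to FC of 1.005). Thus the partners in each pair lay on opposite sides: the 3p arm in EX and the 5p arm in FC, and *bta-miR-145* in EX and *bta-miR-143* in FC. Ranked by the median log2 ratio of EX to FC among the 330 miRNAs, *bta-miR-145* was 15th, *bta-miR-126-3p* 20th, *bta-miR-126-5p* 215th and *bta-miR-143* 273rd.

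**Figure D2:**
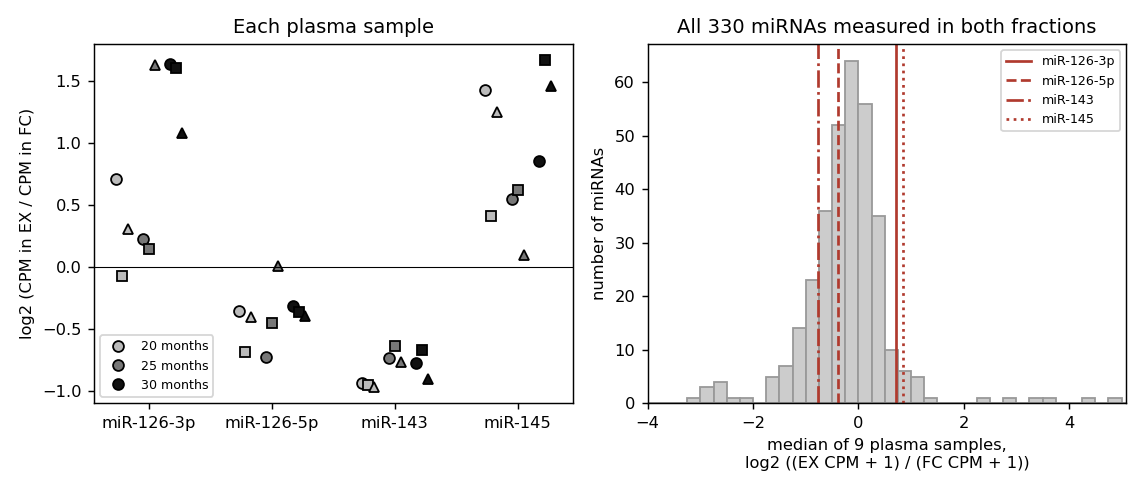
Left, log2 of CPM in EX over CPM in FC (vertical axis) for each of the 9 plasma samples, with circles, squares and triangles for steers 1, 2 and 3 and darker shades for later ages. Right, the number of miRNAs (vertical axis) by median log2 ratio (horizontal axis) for the 330 miRNAs of both fractions, with lines at medians of 0.71 for *bta-miR-126-3p*, −0.39 for *bta-miR-126-5p*, −0.77 for *bta-miR-143* and 0.85 for *bta-miR-145*.

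In the paired edgeR quasi-likelihood fit over all 18 libraries, the mean EX-against-FC difference had an FDR (Benjamini-Hochberg adjusted p over the 330 miRNAs) under 0.05 for 4 of the 4 miRNAs, against 25.8% of the 330. Counting by FDR alone was chosen after seeing the data. The log2 fold change of EX over FC, averaged over ages, was 0.70 ± 0.17 (SE; FDR = 0.0149) for *bta-miR-126-3p* and −0.52 ± 0.078 (FDR = 0.00124) for *bta-miR-126-5p*. It was −0.92 ± 0.048 (FDR = 1.5e-06) for *bta-miR-143* and 0.82 ± 0.15 (FDR = 0.00422) for *bta-miR-145*. The median over the 330 miRNAs was −0.42. None of these 4 mean differences reached the 2-fold change that the study asked of calls between ages, applied here to the fractions as well, which 9.09% of the 330 passed, and DESeq2 and the edgeR likelihood ratio test called 0 as well, while all 4 had an unadjusted p under 0.05 with each tool. With no low-count filter *bta-miR-143* just passed it, at −1.002 for the mean of ages (edgeR FDR = 7.73e-08). Without steer 1, *bta-miR-126-3p* and *bta-miR-126-5p* no longer had an FDR under 0.05, and 2 of 4 remained. The same number, 2, was left when libraries were paired by steer instead of by plasma sample.

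By age, the number with an FDR under 0.05 was 3 of 4 at 20 months (9.39% of the 330), 1 of 4 at 25 months (6.97%) and 4 of 4 at 30 months (22.1%). With a replicate block by steer in place of plasma sample these counts were 0, 0 and 1, and with no replicate block 0, 0 and 2. Called with the 2-fold rule were 0 at 20 months (2.12%; 1 by DESeq2 and 3 at an unadjusted p under 0.05), 0 at 25 months (2.12%; 0 by DESeq2, 2 at an unadjusted p under 0.05) and 3 at 30 months (13.6%; 2 by DESeq2 and 3 by the likelihood ratio test). *Bta-miR-126-3p* was higher in EX by 2.26-fold at 30 months (log2 1.18 ± 0.29, SE; edgeR FDR = 0.0167), against 0.27 ± 0.29 at 20 months and 0.64 ± 0.29 at 25 months, where the FDR was 0.86 and 0.33. *Bta-miR-145* was higher in EX by 2.09-fold at 30 months (log2 1.06 ± 0.26, edgeR FDR = 0.018), against 0.99 ± 0.27 at 20 months (edgeR FDR = 0.0482) and 0.40 ± 0.26 at 25 months (edgeR FDR = 0.56). At 20 months it passed 2-fold and was called with library totals (1.03), RLE factors (1.07), DESeq2 (1.07) and rows as deposited (1.03). *Bta-miR-143* was higher in FC by 2.06-fold at 30 months (log2 EX over FC −1.04 ± 0.084, edgeR FDR = 3.5e-05). *Bta-miR-143* was at −0.995 ± 0.084 at 20 months and −0.73 ± 0.083 at 25 months, with edgeR FDRs of 0.000104 and 0.00135. With no low-count filter it was called at 20 months as well (−1.07, edgeR FDR = 3.66e-05). The 30 months calls lay close to the 2-fold line. The difference of *bta-miR-143* was −0.78 with library totals alone and −0.97 with RLE factors or DESeq2. With no low-count filter *bta-miR-126-3p* was at 0.97 and *bta-miR-145* at 0.86 (edgeR FDR = 0.0659), so that neither was called. Leaving out steer 1 or steer 2 left 1 call. Without steer 3, 2 calls were left. With a replicate block by steer, *bta-miR-126-3p* (edgeR FDR = 0.0877) and *bta-miR-145* (edgeR FDR = 0.0507) were not called at 30 months, and with no replicate block *bta-miR-126-3p* (edgeR FDR = 0.0729) was not.

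A ratio of 2 miRNAs inside 1 library does not depend on the library total or on scaling. The ratio of *bta-miR-126-3p* to *bta-miR-126-5p* was 2.13, 1.45 and 1.81 in EX at 20 months, 1.73, 1.61 and 2.82 at 25 months, then 2.88, 3.00 and 2.46 at 30 months in steers 1, 2 and 3. In FC it was 1.02, 0.95 and 1.11 at 20 months, 0.895, 1.07 and 0.915 at 25 months, then 0.746, 0.765 and 0.889 at 30 months. In EX the 3p arm exceeded the 5p arm in every library, whereas in FC the arms were near parity, and the ranges of the fractions (1.45 to 3.00 and 0.746 to 1.11) did not overlap. The EX ratio was higher than the FC ratio of the same plasma in 9 of 9 samples, by 2.32-fold on average (mean log2 difference 1.22 ± 0.55, SD, n = 9; two-sided exact sign-flip permutation test p = 0.00391, also after adjustment over 3 ratios). This p is the smallest that 9 plasma samples can give, and they come from 3 steers, whose means allow no exact p below 0.25. The mean log2 difference was 0.80 ± 0.24 at 20 months, 1.06 ± 0.52 at 25 months and 1.80 ± 0.28 at 30 months (SD, n = 3 each).

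The ratio of *bta-miR-143* to *bta-miR-145*, the cluster mates, was 7.02, 19.6 and 12.7 in EX at 20 months, 16.7, 20.6 and 17.6 at 25 months, then 32.6, 20.8 and 14.996 at 30 months. In FC it was 36.1, 50.4 and 59.1 at 20 months, 40.7, 49.2 and 31.9 at 25 months, then 101, 105 and 77.0 at 30 months. FC was above EX in 9 of 9 plasma samples, by 3.34-fold on average (mean log2 EX minus FC −1.74 ± 0.58, SD, n = 9; exact sign-flip permutation test p = 0.00391). The highest EX ratio, 32.6, and the lowest FC ratio, 31.9, met, so the fractions touched across ages although not within a plasma sample. At 20, 25 and 30 months the mean log2 difference was −1.98 ± 0.54, −1.13 ± 0.23 and −2.11 ± 0.41. In FC the ratio was higher at 30 than at 25 months in 3 of 3 steers, by 1.31, 1.09 and 1.27 on the log2 scale (mean 1.22 ± 0.12, SD), a design in which no exact p can fall below 0.25.

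The ratio of *bta-miR-126-3p* to *bta-miR-143* was between 0.777 and 3.22 in EX (median 1.82) and between 0.322 and 1.05 in FC (median 0.546). It was higher in EX in 9 of 9 plasma samples, by 3.08-fold on average (mean log2 difference 1.62 ± 0.67, SD, n = 9; exact sign-flip permutation test p = 0.00391). The difference was 1.26 ± 0.38 at 20 months, 1.38 ± 0.88 at 25 months and 2.22 ± 0.22 at 30 months. The size and side of such a ratio depended on which arm and which cluster mate were set against each other. The other pairings, added after seeing the data and given with no test, had mean log2 differences of −0.12 ± 0.79 (SD, n = 9; higher in EX in 2 of 9) for *bta-miR-126-3p* to *bta-miR-145*, 0.40 ± 0.23 (higher in EX in 9 of 9) for *bta-miR-126-5p* to *bta-miR-143* and −1.34 ± 0.59 (lower in EX in 9 of 9) for *bta-miR-126-5p* to *bta-miR-145*. Without the 25 months plasma of steer 3, the 3 tested ratios differed between fractions by 1.17, −1.85 and 1.52 on the log2 scale (exact sign-flip permutation p = 0.00781 each, n = 8), and over the 20 and 25 months samples alone by 0.93, −1.56 and 1.32 (exact p = 0.0312 each, n = 6).

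**Figure D3:**
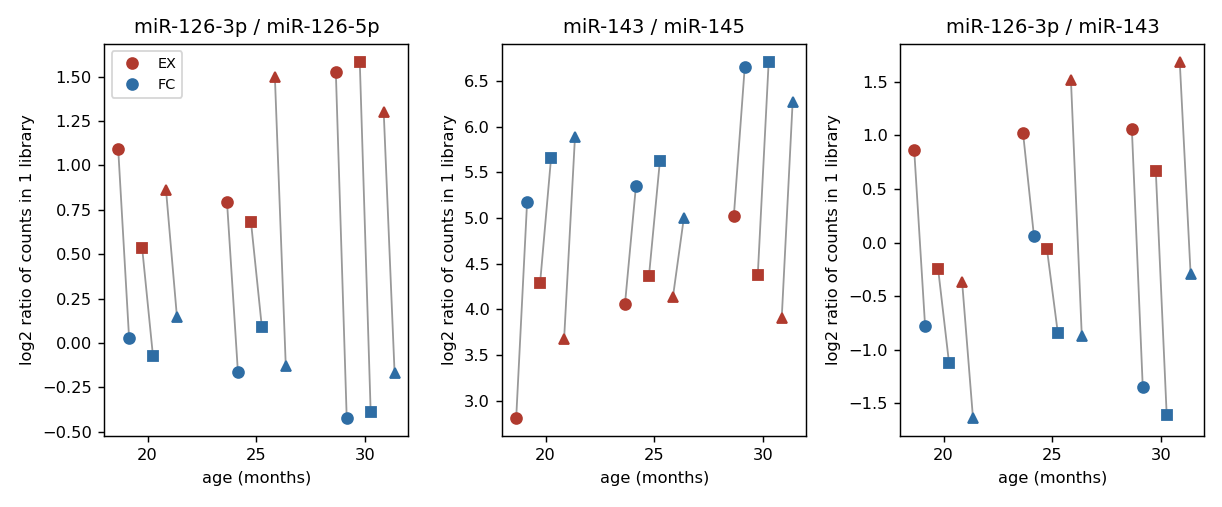
Log2 ratio of counts within 1 library (vertical axes) against age in months (horizontal axes) for 3 pairs of miRNAs, with EX in red, FC in blue, a line joining the libraries of 1 plasma sample, and circles, squares and triangles for steers 1, 2 and 3. The 3p to 5p ratio is higher in EX in all 9 plasma samples, by 1.22 on average, and the ratio of *bta-miR-143* to *bta-miR-145* lower, by 1.74.

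To place the arm ratio among other hairpins, all 25 with both arms past the filter in both fractions were examined with the same measure, after adding 1 CPM to each arm. MiR-126 was the 1 hairpin in which the ratio of all 9 plasma samples lay on the same side (4% of the 25). By the size of its median difference, 1.06 on the log2 scale, it came after 2 others, miR-99a (−1.45) and miR-17 (−1.29), whose rarer arms were at 0 in some libraries. Of the 9 hairpins with both arms above 0 in every library, miR-126 had the largest median difference. Its lowest level in any library was 2183 CPM. The median over the 25 hairpins was −0.12. Another 3 hairpins, miR-17, miR-21 and miR-425, lay on the opposite side to miR-126 in 8 of the 9 plasma samples. Of these, miR-425 had both arms above 0 in every library, with a median difference of −0.47.

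**Figure D4:**
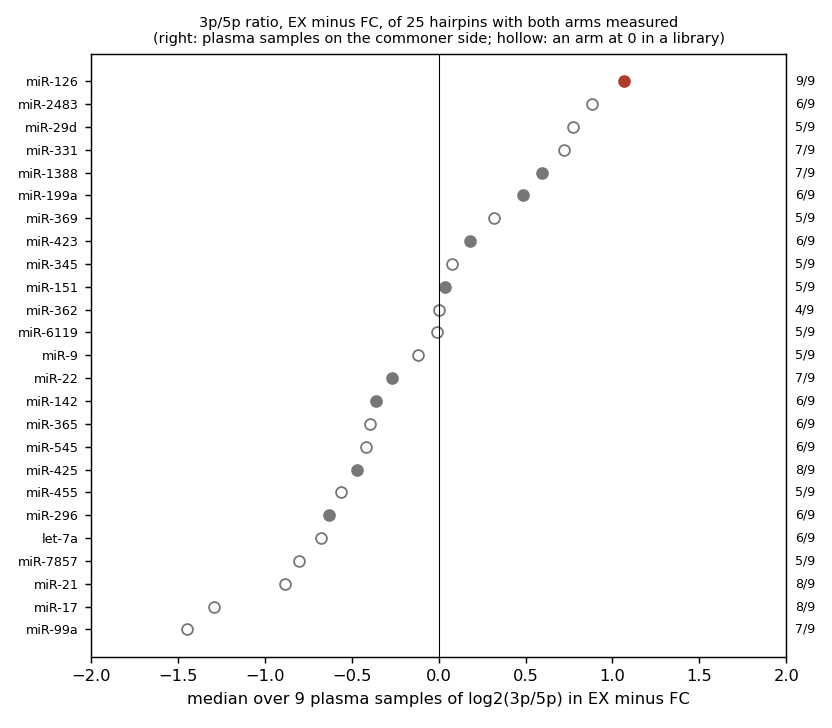
Median over 9 plasma samples of the log2 ratio of 3p to 5p in EX minus that in FC (horizontal axis) for 25 hairpins (rows), with the number of plasma samples on the commoner side at the right. Filled points have both arms above 0 in all 18 libraries, and miR-126 (red, 1.06, 9 of 9) is the farthest to the right.

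The second comparison was between ages, within each fraction and paired by steer. *Bta-miR-126-3p* in EX rose from 20 to 30 months by 2.57-fold (log2 1.36 ± 0.28, SE, 95% interval 0.71 to 2.01; edgeR FDR = 0.0149), the 1 member called in this contrast, where 13.3% of the 345 EX miRNAs were called and 3.48% were called as higher. In CPM it was higher in 3 of 3 steers, by 2.04-fold, 3.03-fold and 5.56-fold, while the median log2 fold change of the 345 miRNAs was −0.64. The call was lost with any 1 steer left out: the edgeR FDR was 0.0764 without steer 1, 0.122 without steer 2 and 0.0726 without steer 3, and the log2 fold change lay between 0.97 and 1.65. *Bta-miR-126-5p* in the same contrast was at 0.78 ± 0.38 (edgeR FDR = 0.21), also higher in 3 of 3 steers. *Bta-miR-143* was at 0.28 ± 0.31 and *bta-miR-145* at −0.54 ± 0.46, with 95% intervals of −0.42 to 0.99 and −1.60 to 0.53.

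Between 20 and 25 months, 0 of the 4 were called in EX by edgeR (background 0.29%), with 2 at an unadjusted p under 0.05 and 1 called by DESeq2. The 2 were *bta-miR-126-3p* (log2 fold change 1.14 ± 0.28, FDR = 0.568 by edgeR and 0.0194 by DESeq2) and *bta-miR-126-5p* (1.02 ± 0.37, edgeR FDR = 0.997). Each was higher in 3 of 3 steers, by 1.7-fold to 2.43-fold and by 1.36-fold to 2.2-fold. Between 25 and 30 months in EX, 0 of 4 were called by edgeR, by DESeq2 or at an unadjusted p under 0.05, where 14.2% of the 345 were called. The 4 log2 fold changes lay between −0.37 and 0.22, above the median of −0.51 over the 345 miRNAs. With library totals in place of TMM, that median moved by 0.47, and *bta-miR-126-5p*, *bta-miR-143* and *bta-miR-145* changed sign in this contrast.

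In FC, 0 of 4 were called in any age contrast by edgeR, by its likelihood ratio test or by DESeq2. From 25 to 30 months (background 15.6%), *bta-miR-145* was at −0.91 ± 0.29 (95% interval −1.57 to −0.26; unadjusted p = 0.0121, edgeR FDR = 0.0565), the 1 member at an unadjusted p under 0.05. Its FDR was 0.0242 by DESeq2, 0.0291 by the edgeR likelihood ratio test and 0.0338 by edgeR with no replicate block, in each case short of 2-fold. It was 0.485 and 0.36 of its 25 months level in steers 1 and 2 and 1.07 times that level in steer 3. The other 3 were between −0.19 and 0.27, with steers in opposition: *bta-miR-126-5p* was at 0.541, 0.629 and 3.97 times its 25 months level in steers 1, 2 and 3. From 20 to 30 months (background 6.98%; 0 of 4 at an unadjusted p under 0.05 by edgeR and 1 by DESeq2), *bta-miR-126-5p* was at 1.05 ± 0.47 (edgeR FDR = 0.173), *bta-miR-126-3p* at 0.72 ± 0.50, *bta-miR-143* at 0.49 ± 0.29 and *bta-miR-145* at −0.47 ± 0.29. Without steer 3, *bta-miR-126-3p* was at −0.022. From 20 to 25 months, 0 of 358 miRNAs were called (background 0%), and 0 of the 4 were at an unadjusted p under 0.05 by edgeR and 1 by DESeq2. The count of *bta-miR-126-3p* was the same, 29921, in the FC libraries of steer 3 at 20 and 25 months, although their totals and their counts of the other 3 members differed.

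**Figure D5:**
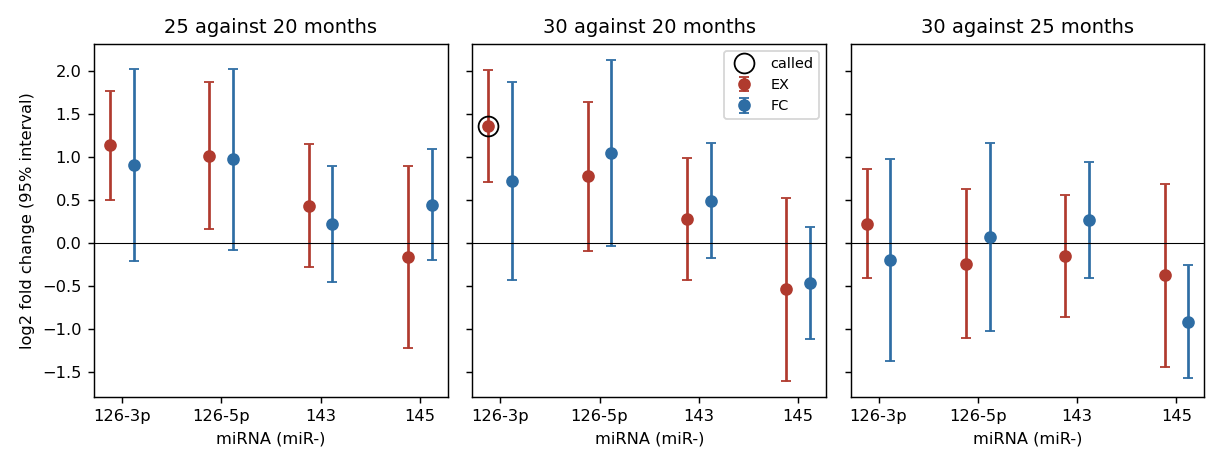
Log2 fold change with its 95% interval (vertical axis) for each miRNA (horizontal axes) between ages in EX (red) and FC (blue), from edgeR fits of 9 libraries each. The circled point, *bta-miR-126-3p* in EX at 30 against 20 months (1.36), is the 1 value called at FDR < 0.05 and more than 2-fold.

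Whether the age change differed between EX and FC was tested in the fit of all 18 libraries. The difference of differences was called for 0 of the 4 by edgeR between 30 and 25 months (background 6.97%, 1 at an unadjusted p under 0.05, 1 called by DESeq2) and for 0 of 4 between 30 and 20 months (8.79%, 1 at an unadjusted p under 0.05, 0 by DESeq2). The value for *bta-miR-126-3p* was 0.91 ± 0.40 between 30 and 20 months (95% interval 0.00334 to 1.82; edgeR FDR = 0.185). For *bta-miR-143* it was −0.31 ± 0.12 between 30 and 25 months (edgeR FDR = 0.152). The rise of *bta-miR-126-3p* in EX was therefore not shown to differ from its change in FC.

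Across all 18 libraries, the partners of a pair were not each other's closest match. Likeness was measured as the SD over libraries of the log2 ratio between miRNAs, which is small where levels move in parallel, over the 329 other miRNAs of both fractions. It is a description, since libraries of 1 plasma sample are not independent. *Bta-miR-126-3p* was closest to *bta-let-7e* (SD 0.39), *bta-miR-3432a* (0.48) and *bta-miR-10b* (0.49), with its own 5p arm in place 11 (0.70). *Bta-miR-126-5p* was closest to *bta-miR-10b* (0.44), *bta-miR-125a* (0.45) and *bta-miR-1468* (0.47), with the 3p arm in place 18. *Bta-miR-143* was closest to *bta-miR-215* (0.32), *bta-miR-195* (0.40) and *bta-miR-192* (0.42), and *bta-miR-145* was in place 139 (1.07). *Bta-miR-145* was closest to *bta-miR-10174-3p* (0.47), *bta-miR-23a* (0.47) and *bta-miR-23b-3p* (0.48), and *bta-miR-143* was in place 137. The median over all miRNAs was between 1.26 and 1.42.

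Other miRNAs ascribed to the same cells were counted next. Of 7 other endothelial miRNAs, 6 could be tested in EX, since *bta-miR-503-5p* was at 0 in all EX libraries. From 20 to 30 months in EX, 1 of 6 was called by edgeR, as higher (*bta-miR-130a*, log2 1.71 ± 0.29, edgeR FDR = 0.0079; background 13.3% in either direction, as for the lists below, and 3.48% higher). DESeq2 called 2, with *bta-miR-210* also higher (1.46 ± 0.43, DESeq2 FDR = 0.00421), and 3 were at an unadjusted p under 0.05 by edgeR. The median of the list was −0.07 against −0.64 over all 345. From 25 to 30 months in EX (background 14.2%), *bta-miR-130a* (1.43 ± 0.28) and *bta-miR-210*, the hypoxia-induced miRNA (1.93 ± 0.52), rose by edgeR, and 2 were called by DESeq2. In FC, of 7 tested, *bta-miR-222* fell by edgeR from 25 to 30 months (log2 −1.26 ± 0.22) and from 20 to 30 months (−1.01 ± 0.22), and *bta-miR-424-5p* fell from 25 to 30 months (−1.65 ± 0.41). The backgrounds were 15.6% from 25 and 6.98% from 20 months. From 25 to 30 months DESeq2 called 3, these 2 and *bta-miR-503-5p*, also lower (−3.74 ± 1.47, DESeq2 FDR = 0.0377). From 20 to 30 months DESeq2 called 1, *bta-miR-424-5p* (−1.30 ± 0.44, DESeq2 FDR = 0.0219). There *bta-miR-222* was at −0.98 ± 0.24 (DESeq2 FDR = 0.000612), short of 2-fold. Between fractions, 0 of 6 had an FDR under 0.05 for the mean difference by edgeR (background 25.8%; 1 at an unadjusted p under 0.05 and 1 by DESeq2), and at 30 months 1 was lower in EX (*bta-miR-27b*, the most abundant of the list, −0.33 ± 0.09; background 22.1%), with 4 of 6 by DESeq2 and 4 at an unadjusted p under 0.05. The summed level of the list was 14131 to 26066 CPM in EX at 20 months and 21164 to 24488 CPM at 30 months.

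Of 10 smooth muscle and stromal miRNAs, all were tested in both fractions. From 25 to 30 months (background 14.2% in EX and 15.6% in FC) *bta-miR-152* rose (log2 1.10 ± 0.30 in EX and 1.21 ± 0.27 in FC) and *bta-miR-99a-5p* fell (−1.26 ± 0.33 and −1.18 ± 0.27), and from 20 to 30 months *bta-miR-99a-5p* fell in EX (−1.49 ± 0.33; background 13.3%) and 0 of 10 were called in FC by edgeR or DESeq2 (background 6.98%; 5 at an unadjusted p under 0.05). For the mean of ages, 2 of 10 had an edgeR FDR under 0.05 (background 25.8%), both lower in EX than in FC, *bta-miR-152* (−0.39 ± 0.075) and *bta-miR-199a-3p*, the most abundant (−0.38 ± 0.056). DESeq2 had 4 of 10, these 2 and, higher in EX, *bta-miR-10b* (log2 0.22 ± 0.080, DESeq2 FDR = 0.0201) and *bta-miR-125b* (0.24 ± 0.095, DESeq2 FDR = 0.0351). The median of the list between fractions was −0.09.

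Blood cells also release miRNAs into plasma, and their values are given beside those of the members, against the same backgrounds. Of 6 platelet miRNAs, *bta-miR-26a* fell from 25 to 30 months (−1.77 ± 0.39 in EX, −1.498 ± 0.40 in FC), 0 of 6 were called from 20 to 30 months in either fraction by edgeR or DESeq2 (1 in EX and 2 in FC at an unadjusted p under 0.05), and between fractions 1 was higher in EX (*bta-miR-24-3p*, 0.20) and 2 were higher in FC (*bta-miR-223*, −0.73, and *bta-miR-22-3p*, −0.25) by edgeR. DESeq2 had 4 between fractions, these 3 and *bta-miR-23a*, higher in EX (0.20 ± 0.046, DESeq2 FDR = 0.000128). The summed platelet level in EX was 50558 to 98365 CPM at 20 months and 61742 to 65454 CPM at 30 months. Much of it was *bta-miR-223*, the most abundant of the list, with EX means of 36549 and 27294 CPM at these ages. Of 3 red cell miRNAs, *bta-miR-451* (0.77 ± 0.13) and *bta-miR-486* (0.63 ± 0.063) were higher in EX for the mean of ages, as *bta-miR-126-3p* and *bta-miR-145* were. So were both lymphocyte miRNAs, *bta-miR-150* (0.46 ± 0.094, edgeR FDR = 0.00618) and *bta-miR-342* (0.43 ± 0.11, edgeR FDR = 0.0208). *Bta-miR-451* fell in EX from 25 to 30 months (−2.20 ± 0.51, edgeR FDR = 0.0269), where DESeq2 also called *bta-miR-144* (−1.66 ± 0.58, DESeq2 FDR = 0.0184). In FC *bta-miR-451* was at −1.68 ± 0.52 (edgeR FDR = 0.0516), a fall that DESeq2 called (−1.65 ± 0.51, DESeq2 FDR = 0.00684). It fell in EX from 20 to 30 months (−1.84 ± 0.51), where DESeq2 also called *bta-miR-144* (−1.48 ± 0.58, DESeq2 FDR = 0.0417), and 0 of 3 were called in FC in that contrast by edgeR, by DESeq2 or at an unadjusted p under 0.05. The summed red cell level was 25390.1 to 92244 CPM in EX, against 10720.2 to 46802 CPM in FC. The part of platelets, red cells and lymphocytes in the members' values was not tested.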

How the data were processed

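The authors trimmed 51 bp single-end reads with cutadapt 5.0 and Trimmomatic 0.39, checked them with FastQC 0.12.1, quantified miRNAs with miRDeep2, and scaled them with edgeR 4.0.16. They deposited expected counts (not whole where reads were shared) and CPM per miRNA. In 4 FC libraries (steer 3 at 25 months and all 3 steers at 30 months), 77 to 101 counts each did not match the deposited CPM. They were replaced by the counts that CPM and library total imply, with the CPM taken as correct. A match was within a relative tolerance of 0.001 or 0.02 counts, and all 72 member values matched as deposited. The setting named rows as deposited kept the counts unchanged. Counts were rounded, filtered (CPM > 5 in at least 3 of 9 libraries, leaving 345 miRNAs in EX, 358 in FC and 330 in both), scaled by TMM and tested with the edgeR 4.0.16 quasi-likelihood test (R 4.3.3; limma 3.58.1; DESeq2 1.42.0 as an alternative). The age fits had steer as a block, and the EX-against-FC fit had plasma sample. A miRNA was called at FDR < 0.05 and over 2-fold, and FDR alone where stated or for differences of differences and, between fractions, for the lists. Members are the 4 miRNAs and, for each, the 3 most alike are named; of each list, the called and the most abundant members are named. The members and lists were chosen with earlier results of these data known.

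Replicate numbers were taken as steer numbers, because the same 3 steers were sampled at each age. The sample titles give the numbers alone and do not say that a number is the same animal throughout. Deviations from group means correlated by 0.20 on average between EX and FC of the same plasma, and by 0.024 (EX) and 0.084 (FC) between ages of the same number. The averages between different numbers were −0.10, −0.012 and −0.042. Centering each group on its own mean ties these to the former, so they are no independent contrast. The values between ages were small, and the pairing across ages remains an assumption. Ratio tests and figures used scipy 1.17.1, matplotlib 3.10.9, pandas 2.3.3 and numpy 2.4.6 under Python 3.11.15. The fits were tested on simulated data. Alternatives were other scalings, tools, filters, blocks and left-out steers. The settings without the 25 months plasma of steer 3, over 20 and 25 months alone, for other pairs of members, and counted by FDR alone were chosen after seeing the data. The qPCR data, carcass records, target prediction and reads were not analysed here.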

Additional observations from a re-analysis of the deposited data

Results flagged for a closer look

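The ratio of *bta-miR-126-3p* to *bta-miR-126-5p* was picked out because, from 20 to 30 months, it moved in opposite directions in EX and FC in every steer. Its log2 value was higher in EX in 3 of 3 steers (by 0.43, 1.05 and 0.44) and lower in FC in 3 of 3 steers (−0.45, −0.31 and −0.32), with means of 0.64 ± 0.35 and −0.36 ± 0.079 (SD). The difference between the fractions' changes was 1.00 ± 0.32. Its exact sign-flip permutation p over the 3 steers was 0.25, the smallest possible. This p cannot decide the question, since a ratio picked for this pattern has 3 differences of the same sign by choice. The pattern did not hold in every steer between neighboring ages. From 20 to 25 months the ratio was lower in both fractions in steer 1 (−0.30 in EX and −0.19 in FC) and higher in both in steer 2 (0.15 and 0.17), and from 25 to 30 months it was lower in both in steer 3 (−0.20 and −0.042).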

How the results depend on the processing

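Of 552 alternative values of the 4 miRNAs' fold changes, 499 kept their direction and call, 27 changed sign, 16 lost a call and 10 gained one. Calls were summed over contrasts, so that a miRNA can count more than once. The number called by age in EX, 1, was 2 with DESeq2 (*bta-miR-126-3p* in both contrasts against 20 months) and 0 to 0 with each steer left out. The number called between fractions, 3, was 4 with rows as deposited, 2 with no low-count filter, 2 with no replicate block, 1 with a replicate block by steer and 1 to 2 with each steer left out. By FDR alone, the 4 members between fractions became 2 with no replicate block, 2 with a replicate block by steer, and 2 to 4 with each steer left out. For a different change by age, 0 became 1 with RLE factors, 1 with DESeq2 and 0 to 1 with each steer left out (1 without steer 3). The ratios gave 1.22, −1.74 and 1.62 over the steers' means (replicate block by steer, exact p = 0.25, the smallest possible), and 1.16 to 1.30, −1.79 to −1.70 and 1.49 to 1.78 with each steer left out. The age fits in EX with no replicate block changed no call.

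Sign changes followed the scaling in part. With library totals the median over all miRNAs moved by 0.47 (EX, 25 to 30 months), 0.35 (EX, 20 to 30), 0.26 (EX against FC at 30 months) and by 0.13 or less in the FC ages. In that setting *bta-miR-126-5p*, *bta-miR-143* and *bta-miR-145* were at 0.21, 0.27 and 0.070 in EX from 25 to 30 months, and the difference of differences was 0.034 (30 against 25 months) and 0.13 (30 against 20) for *bta-miR-126-5p* and 0.17 (30 against 20) for *bta-miR-143*. With no filter *bta-miR-126-5p* was at −0.011 in FC from 25 to 30 months, and *bta-miR-145* at −0.057 for the difference of differences between 30 and 20 months. With no replicate block *bta-miR-126-5p* was at −0.063 in FC from 25 to 30 months. Without the 25 months plasma of steer 3, *bta-miR-145* was at 0.23 in EX from 20 to 25 months, and *bta-miR-126-5p* and *bta-miR-143* were at −0.44 and −0.032 in FC from 25 to 30 months. With each steer left out, the ranges that crossed 0 in EX from 25 to 30 months were −0.052 to 0.34 (*bta-miR-126-3p*), −0.87 to 0.068 (*bta-miR-126-5p*) and −0.42 to 0.17 (*bta-miR-143*), and −0.62 to 0.15 for *bta-miR-145* from 20 to 25 months. In FC they were −1.10 to 0.33, −0.74 to 0.60 and −0.0071 to 0.67 for those 3 from 25 to 30 months, −0.022 to 1.15 for *bta-miR-126-3p* from 20 to 30 months, and −0.091 to 0.53 for *bta-miR-143* from 20 to 25 months. For the difference of differences they were −0.087 to 0.91 for *bta-miR-126-3p* (30 against 25) and −0.59 to 0.41 for *bta-miR-145* (30 against 20). None of these sign changes was in a called value, and the cause was not tested.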

Other observations

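The remaining lists show what else moved in the same plasma. Both lymphocyte miRNAs, *bta-miR-150* and *bta-miR-342*, fell in EX from 20 to 30 months (log2 fold change −3.93 ± 0.59 and −2.71 ± 0.42, SE) and from 25 to 30 months (−4.06 ± 0.60 and −2.31 ± 0.41). In FC, both fell from 25 to 30 months by edgeR and by DESeq2. From 20 to 30 months edgeR called *bta-miR-150* (−2.72 ± 0.59) and not *bta-miR-342* (edgeR FDR = 0.103). DESeq2 called *bta-miR-342* in that contrast (−1.34 ± 0.48, DESeq2 FDR = 0.0292) and not *bta-miR-150*. Their summed EX level was 155917 to 202839 CPM at 20 months and 13723 to 27464 CPM at 30 months, and a CPM of every other miRNA is a share of what remains. Of 5 striated muscle miRNAs, 4 were tested, and from 20 to 30 months 0 were called by edgeR or at an unadjusted p under 0.05 in either fraction, with 1 in EX and 0 in FC called by DESeq2. Of 2 hepatocyte miRNAs, *bta-miR-122*, the abundant one, was called by age in neither fraction by edgeR, while DESeq2 called it as higher in EX from 25 to 30 months (1.13 ± 0.41, DESeq2 FDR = 0.0259). It was lower in EX than in FC for the mean of ages by edgeR (−0.26 ± 0.083, edgeR FDR = 0.0466), but did not have an FDR under 0.05 by DESeq2. *Bta-miR-885* fell in FC from 20 and from 25 to 30 months, with 19.8 to 25.9 CPM at 25 months and 0 to 0.526 CPM at 30 months. In EX at 30 months it was at 70.2 CPM in 1 library and at 0 in the others. The edgeR fit gave it as higher in EX for the mean of ages (2.39 ± 0.58, edgeR FDR = 0.0216), while at 20 months its mean was 46.0 CPM in EX, against 38.6 CPM in FC, so that this value rests in part on 1 EX library over FC libraries near 0.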
